A study of Drosophila melanogaster with 8 samples.

Results

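Overexpression of cbc was compared directly with overexpression of PCF11 in testes of Drosophila melanogaster bam mutant males, for the choice of poly(A) site and for reads per gene. In flies, cbc is the homolog of CLP1 and Pcf11 the homolog of PCF11, the proteins of cleavage factor II. This factor acts with the other cleavage and polyadenylation factors at the 3' end of nascent transcripts, and Pcf11 also binds the tail of RNA polymerase II and takes part in transcription termination. Where a gene has more than 1 poly(A) site, cleavage at the promoter-near (proximal) site gives a shorter 3' untranslated region (3' UTR), which lacks the sequence between the sites. The gene bam is needed for spermatogonia to stop dividing and become spermatocytes, so testes without it are filled with spermatogonia.

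The comparison used 4 of the 8 libraries of the series, 2 per genotype. No control library was among them, so a difference does not say which genotype changed. The cbc males were nosGal4/Y with UAS>cbc-V5/+ on the second chromosome, and the PCF11 males were nosGal4/Y with UAS>PCF11-RF-HA/+ in its place. Both genotypes carried bam86,bamGal4 over bam1, so both were bam mutants, and in both the nos and bam Gal4 drivers, which act in the germ line, expressed the transgene. Crosses stood at 25 degrees for 3 days and the progeny at 29 degrees until dissection. Each library was made from 150 pairs of testes with a forward QuantSeq kit, which reads the 3' ends of polyadenylated RNA. The labels number the 2 libraries of a genotype without saying whether they come from separate crosses, so p-values measure only the spread between these libraries. Another UAS insertion stands in each genotype, so the protein made and the insertion that makes it cannot be told apart.

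The 2 deposited count tables shared 1082 windows of about 30 bp in 529 entries, each a gene with 1 of its transcripts (522 gene symbols). There were 505 entries with 2 windows and 24 with 3. The proximal window lay in an annotated 3' UTR in 520 entries and the most distal one in 446, while 74 distal windows lay downstream of the annotated gene. The outer windows of an entry lay 103 to 11957 bp apart (median 440 bp). The windows held 287046 and 244017 reads in the cbc libraries, against 251163 and 238162 in the PCF11 libraries, and the median entry had 321 and 266 reads, against 263 and 248. No window of cbc or Pcf11 itself is listed, so the overexpression was not measured here. Of 43 marker genes chosen for the hub, cyst cells, muscle, fat body, early germ line and spermatocytes, 1 is listed, the cyst lineage gene zfh1. Its CPM, scaled to the listed reads, was 1508 and 1935 in cbc testes, against 1386 and 1204 in PCF11 testes, with an edgeR adjusted p of 0.35. Which cells the RNA came from could therefore hardly be checked, and fewer cells of a type and less RNA per cell cannot be told apart in bulk tissue.

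The first question was whether the share of reads at the proximal site differed between the genotypes. The reads count the RNA present, so cleavage at a site and stability of the RNA cannot be told apart. Over the tested entries, proximal usage (the reads at the most proximal window as a percentage of an entry's reads) was lower with cbc in more entries than it was higher. It was lower in both cbc libraries than in both PCF11 libraries in 166 of 504 entries (32.9%). It was higher in both in 52 (10.3%), so the genotypes stood apart in 218 (43.3%). For a single entry, such a separation has an exact two-sided permutation p of 0.333, so it alone does not show a difference. The fitted log2 odds ratio of proximal usage, cbc over PCF11, was negative in 334 entries and positive in 170, with a median of -0.26. No single entry passed: the edgeR quasi-likelihood test called 0 of 504 (0%) at an adjusted p of 0.05, with a lowest adjusted p of 0.126. At an unadjusted p under 0.05 it found 56 entries (11.1%), of which 48 (9.52%) were toward the distal side with cbc and 8 (1.59%) toward the proximal side. DESeq2 with the same design called 17 (3.37%), 15 of them toward the distal side with cbc and 2 toward the proximal side. The bias-adjusted quasi-likelihood fit of edgeR, tried after the data were seen, called 4 (0.794%), all toward the distal side with cbc.

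Across entries, the median proximal usage was 20.01% and 21.51% in the cbc libraries, against 21.79% and 22.89% in the PCF11 libraries. Both cbc libraries stood below both PCF11 libraries, and the means were 20.8% ± 1.06 with cbc and 22.3% ± 0.780 with PCF11 (SD, n = 2 each). The difference of -1.58 percentage points has an exact two-sided permutation p of 0.333, which is the smallest that 2 libraries against 2 can give. With all windows before the most distal one counted as proximal, the difference was -1.51 points with an exact two-sided permutation p of 0.667, so the libraries then overlapped between the genotypes. When each entry's log2 odds were set against the entry's own mean, the median was -0.16 and -0.12 in the cbc libraries and 0.10 and 0.21 in the PCF11 libraries. A cbc library held the lowest value of the 4 in 160 and 161 entries, against 95 and 62 for the PCF11 libraries. PCF11 library 2 was highest in 176 entries, PCF11 library 1 in 139, and the cbc libraries in 71 and 117. The excess of low values was thus seen in each cbc library, and the excess of high values was largest in PCF11 library 2.

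**Figure D1:**
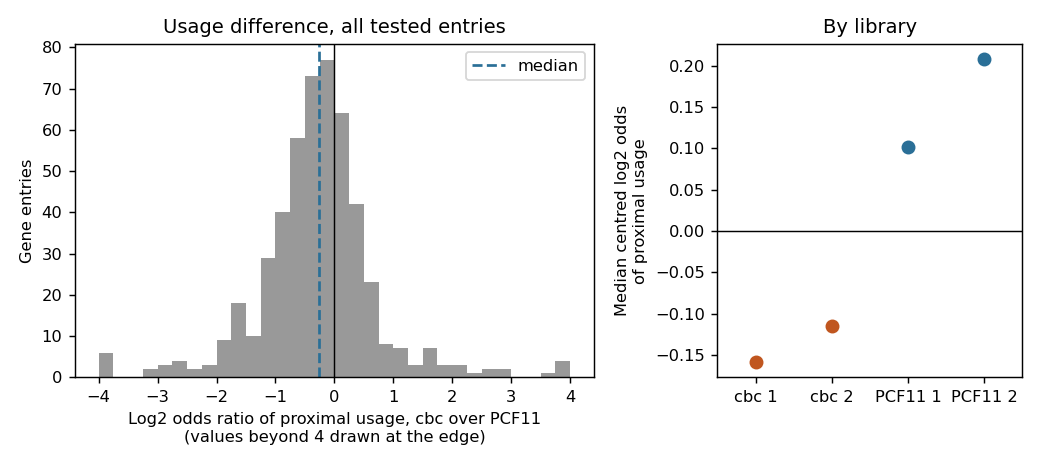
Left, histogram of the log2 odds ratio of proximal usage, cbc over PCF11, for the 504 tested entries (x axis, log2; y axis, entries; dashed line, median of -0.26). Right, the median centred log2 odds of proximal usage in each library, with both cbc libraries (-0.16 and -0.12) below 0 and both PCF11 libraries (0.10 and 0.21) above it.

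The difference between the genotypes was not much larger than that between libraries of 1 genotype. The median absolute difference in proximal usage was 3.77 points between the cbc libraries and 4.30 points between the PCF11 libraries. Between a cbc and a PCF11 library it was 4.36 to 5.35 points over the 4 pairs, and the mean over these pairs was 1.23 times that within genotypes (4.95 against 4.03 points). Counts of 2 libraries of 1 genotype already differed by far more than counting error, with a chi-square over degrees of freedom of 6.02 for cbc and 6.53 for PCF11, against 8.49 to 10.2 between genotypes. Group means lay 10 points or more apart in 89 entries, 69 with the lower value in cbc and 20 with the higher one. They lay 20 points or more apart in 15, with cbc lower in 11 and higher in 4.

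The lean did not belong to 1 class of entries. The log2 odds ratio was negative in 69.7% of the 99 entries whose windows lay under 200 bp apart and in 63.4% of the 71 with 1000 bp or more between them. It was negative in 63.2% of entries under 400 reads in the 4 libraries and in 68.9% of the 61 with 4000 reads or more. On chromosome 2, where the transgenes are, the shares were 64.5% (2L) and 68.8% (2R), against 68.1% on 3L, 65.6% on 3R and 65.3% on X. Of the 8 entries on chromosome 4, 4 were negative. Entries with a window inside another gene's annotation had 64.9% negative values, and the others had 66.9%. Reads in such windows cannot be assigned, since the other gene lies on the same strand or on the opposite one and strand was not used in counting.

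**Figure D2:**
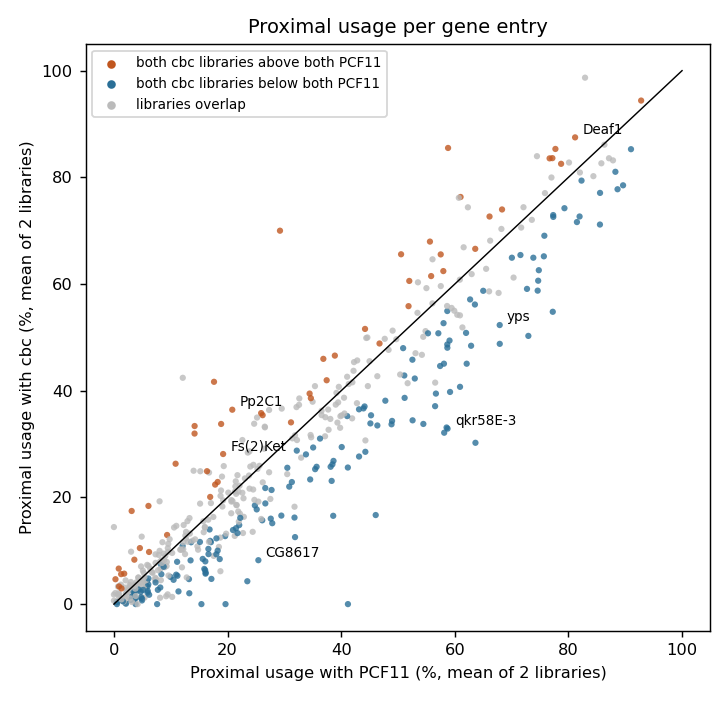
Mean proximal usage of the 504 tested entries with cbc (y axis, %) against PCF11 (x axis, %); the line marks equal usage. Blue points (166) have both cbc libraries below both PCF11 libraries, orange points (52) have both above, and grey points overlap.

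The RNA-binding protein genes yps and qkr58E-3 were among the 4 entries with the lowest edgeR p for usage. The Y-box protein yps binds mRNA and acts in translational control of germ-line transcripts. Its proximal window lies at 12121679 to 12121709 on 3L (BDGP6, as in the deposited tables), 219 bp before the distal one, both in the 3' UTR. Proximal usage of yps was 50.0% and 54.7% in cbc testes, against 68.3% and 67.5% in PCF11 testes. Both cbc libraries were thus lower by more than 10 points, on 2319 and 2171 proximal reads, against 2816 and 3004. The log2 odds ratio was -0.95 ± 0.17 (SE), with an edgeR adjusted p of 0.126, and DESeq2 gave an adjusted p of 6.2e-15.

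The gene qkr58E-3 encodes a KH-domain RNA-binding protein of the quaking-related family, and its windows lie 147 bp apart in the 3' UTR on 2R (proximal window 22409500 to 22409530). It had 33.5% and 32.2% proximal usage with cbc, against 56.6% and 60.9% with PCF11. In these libraries most reads were thus distal with cbc and proximal with PCF11. The log2 odds ratio was -1.54 ± 0.27, with an edgeR adjusted p of 0.126 and a DESeq2 adjusted p of 5.5e-06. Its distal window held 616 and 433 reads with cbc, against 257 and 225 with PCF11, and the proximal one 311 and 206, against 335 and 350.

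The next 2 entries have no gene name beyond their CG number. CG8617 (proximal window 14356053 to 14356083 on 2R, in the 3' UTR) had 9.29% and 7.18% proximal usage with cbc, against 23.9% and 26.9% with PCF11. CG4686 (proximal window 19866625 to 19866655 on 3R) had 2.62% and 3.61%, against 8.63% and 7.70%. The libraries overlapped in neither, which the rule for naming entries required. The log2 odds ratios were -1.93 ± 0.35 and -1.48 ± 0.23, both with an edgeR adjusted p of 0.126. A window of CG4686 overlaps Mrp5 on the opposite strand, so its reads are uncertain.

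Usp10 and Roe1 completed the 6 entries with the lowest p toward the distal side. Usp10, a deubiquitinating enzyme, had 1 and 0 proximal reads in cbc testes, against 10 and 8 in PCF11 testes, among 1102 reads in the first genotype and 850 in the second. The proximal site was thus hardly used in either genotype. Its pooled share with cbc was 0.0429 times that with PCF11 (95% exact counting interval 0.00103 to 0.271). This interval leaves out the spread between libraries, and the edgeR adjusted p was 0.182. Roe1, the mitochondrial GrpE-type exchange factor for Hsp70, had 1.72% and 2.60% with cbc, against 4.73% and 7.10% with PCF11, and a log2 odds ratio of -1.52 ± 0.33 with an edgeR adjusted p of 0.195.

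**Figure D3:**
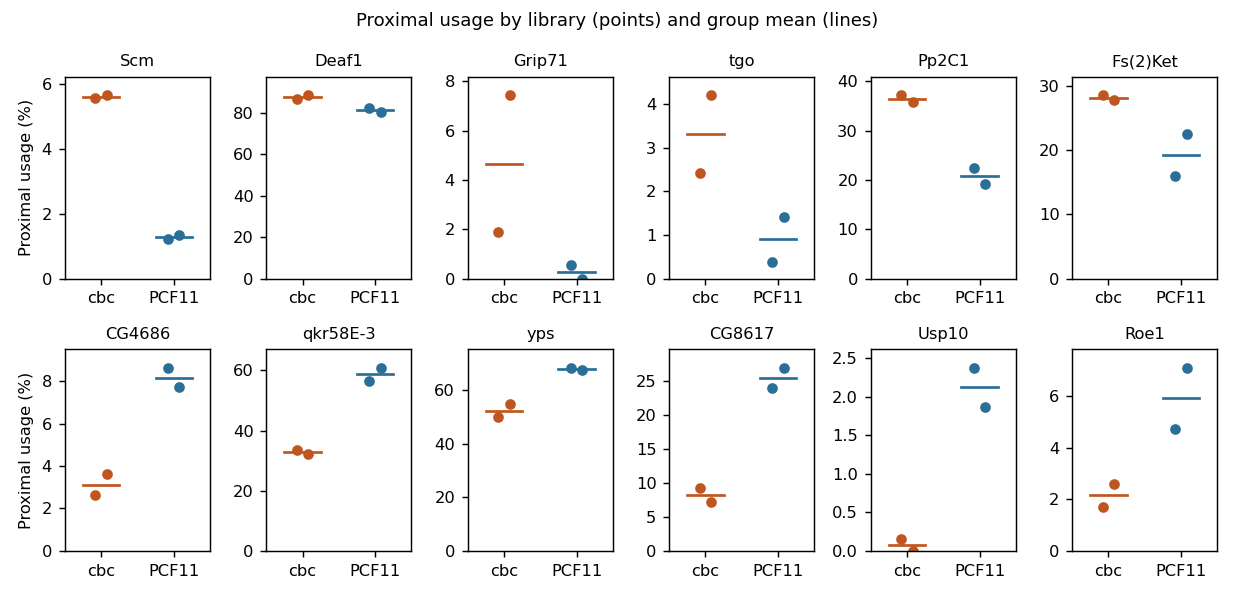
Proximal usage (y axis, %, starting at 0 with its own scale per gene) in the cbc and PCF11 libraries (points) with group means (lines) for the 6 entries per direction with the lowest p among those whose genotypes did not overlap. The top row has higher usage with cbc (Pp2C1 at 37.2% and 35.7%, against 22.5% and 19.2%), and the bottom row lower usage (qkr58E-3 at 33.5% and 32.2%, against 56.6% and 60.9%).

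Toward the proximal side the entry with the firmest counts was Deaf1, a DNA-binding transcription factor. Its proximal usage was 86.7% and 88.3% with cbc, against 82.1% and 80.3% with PCF11, and the proximal site was the main one in all 4 libraries. The log2 odds ratio was 0.70 ± 0.19, with an edgeR adjusted p of 0.34 and a DESeq2 adjusted p of 0.0034. Pp2C1, a protein phosphatase, had 37.2% and 35.7% with cbc, against 22.5% and 19.2% with PCF11, a difference of 15.6 points (log2 odds ratio 1.12 ± 0.42, edgeR adjusted p of 0.351).

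The other 4 entries of this direction had windows that overlap another gene on the opposite strand. The Polycomb-group gene Scm had 5.59% and 5.66% with cbc, against 1.22% and 1.33% with PCF11, on 20 and 28 proximal reads, against 4 and 5. Its log2 odds ratio was 2.17 ± 0.49, with an edgeR adjusted p of 0.195 and a DESeq2 adjusted p of 0.025, and SpdS overlaps its windows. Fs(2)Ket, which encodes the fly importin beta, had 28.5% and 27.8%, against 16.0% and 22.5%, with Amacr overlapping. The values of tgo and Grip71 rest on few proximal reads: tgo had 12 and 19 with cbc, against 2 and 6 with PCF11, and Grip71 5 and 22, against 1 and 0. For Grip71, a subunit of the gamma-tubulin ring complex, the pooled share with cbc was 18.2 times that with PCF11, with a 95% exact counting interval of 3.00 to 746. The spread between libraries is left out of this interval, and the edgeR adjusted p for Grip71 was 0.34.

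The 17 entries that DESeq2 called held 10 not yet described, all with cbc on the distal side. Of these, eIF2alpha, oaf, atl, spel1, Marf, IKKepsilon, Ehbp1 and CG31224 were chosen after their values were seen, while Dph1 and CG14464 also passed the test on reads. The translation initiation factor eIF2alpha had 65.0% and 64.8% with cbc, against 69.5% and 70.6% with PCF11, a small but even difference in a gene with a DESeq2 adjusted p of 2.9e-05 and an edgeR adjusted p of 0.406. The gene oaf had 51.9% and 57.7%, against 74.0% and 80.5%, and Ehbp1, an endocytic recycling factor, 60.4% and 57.1%, against 73.3% and 75.8%. Both cbc libraries were lower by more than 10 points in these genes. The atlastin gene atl, whose GTPase fuses membranes of the endoplasmic reticulum, had 31.1% and 36.6%, against 47.4% and 42.9%, and the kinase gene IKKepsilon 44.6% and 34.9%, against 59.6% and 58.7%. Windows of atl, Marf, IKKepsilon, CG31224 and eIF2alpha overlap another annotated gene.

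Entries with differences of 20 points or more often had few reads or a shared window, and those given here were chosen after their values were seen. CG33136 had 0 and 0 proximal reads with cbc, against 19 and 4 with PCF11, among 70 reads in the 4 libraries, and Antp had 11 and 1, against 9 and 10, among 68. Pof, a protein that binds chromosome 4, had 25.8% and 7.62%, against 40.4% and 51.8%, with Mmp1 overlapping. Lrch, with no overlapping gene and 822 reads in the 4 libraries, had 36.3% and 29.9%, against 56.3% and 60.8% (log2 odds ratio -1.52 ± 0.54, edgeR adjusted p of 0.34). It and oaf were thus the entries beside qkr58E-3 with such a difference, no shared window and over 400 reads. Toward the proximal side, CG8565 had 13 and 9 proximal reads, against 5 and 3, among 60 reads in all. CG33293 had 28 and 0 proximal reads with cbc, against 0 and 8 with PCF11, so 1 library of each genotype held them.

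For some genes the data bound the difference from both sides. The 95% interval of the log2 odds ratio lay within 1 on either side of 0 in 55 entries (10.9%) and within 2 in 281 (55.8%). Among entries with a pooled proximal usage of 20 to 80%, the narrowest bound belonged to heph, the fly polypyrimidine tract-binding protein. It had 26.7% and 25.2% with cbc, against 25.0% and 26.2% with PCF11, and an interval of -0.37 to 0.42. The summed reads of heph were also close, with a log2 fold of 0.14 (interval -0.03 to 0.31). The DEAD-box helicase gene mahe had 59.8% and 61.8%, against 56.7% and 65.1%, and an interval of -0.52 to 0.50. The TOR pathway inhibitor chrb had one of -0.55 to 0.33, and CG3061 one of -0.37 to 0.61. A window of CG3061 overlaps CG9922 on the opposite strand, so its reads are uncertain. For tws, a regulatory B subunit of protein phosphatase 2A, the interval was -0.57 to 0.49. For slmb, an F-box protein of an SCF ubiquitin ligase, it was -0.61 to 0.64. A 2-fold change in the odds lies outside these 6 intervals, whereas over all tested entries the median interval was 2.68 wide on the log2 scale.

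**Figure D4:**
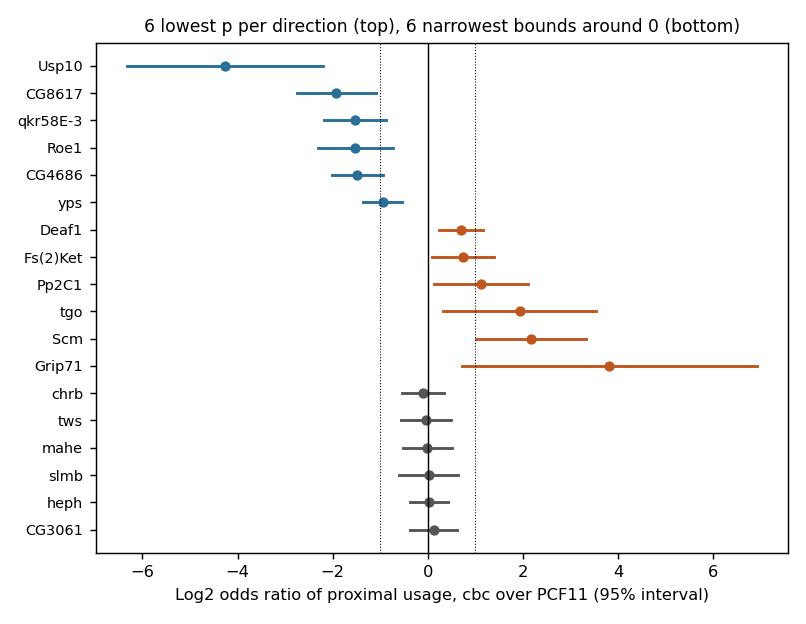
Log2 odds ratio of proximal usage, cbc over PCF11 (x axis), with 95% intervals, for the 6 entries per direction with the lowest p and no overlap between genotypes (top) and the 6 with the narrowest bound around 0 (bottom); dotted lines mark -1 and 1. All 6 bottom intervals stay between the dotted lines (heph -0.37 to 0.42), while that of Usp10 spans -6.32 to -2.21.

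Genes were also grouped by function. Over all 504 tested entries, 32.9% had both cbc libraries below both PCF11 libraries and 10.3% had both above. Beside the members with the most reads, those named here were mostly entries whose genotypes stood apart, chosen after their values were seen. Windows of sina, Imp, PRL-1, Hsc70-5 and Ire1 overlap another annotated gene. Of 12 tested entries in ubiquitin, proteasome and autophagy genes, 8 had both cbc libraries below both PCF11 libraries and 2 had both above, and the median log2 odds ratio was -0.65, beside -0.26 over all 504. The cullin Cul3, a scaffold of ubiquitin ligases, had 27.5% and 26.2% proximal usage with cbc, against 38.3% and 39.0% with PCF11. The ubiquitin ligase genes sina and ctrip lay the same way: sina had 57.2% and 61.0%, against 72.4% and 73.0%, and ctrip 65.5% and 64.9%, against 75.7% and 75.6%. The deubiquitinase Usp8 lay the other way, with 9.18% and 11.8%, against 6.57% and 2.56%, as did DUBAI, with 72.1% and 73.2%, against 70.7% and 61.6%. The deubiquitinase gene Usp7, with the most reads of the list, had 0.412% and 0.316%, against 0.672% and 0.420%, and slmb, described above, overlapped between the genotypes. None of the 12 passed the edgeR test.

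Mitochondrial and metabolic genes had 7 of 9 tested entries with both cbc libraries below and 0 with both above, beside 32.9% and 10.3% over all entries. Their median log2 odds ratio was -0.64. Marf, the fly mitofusin of outer membrane fusion, had 46.9% and 49.9% with cbc, against 63.2% and 62.5% with PCF11. CG31523 had 19.1% and 18.7%, against 25.9% and 27.4%, and Tom40, the pore of protein import, 11.5% and 11.8%, against 13.6% and 16.7%. Idh3b, a subunit of the isocitrate dehydrogenase of the citric acid cycle, had 6.26% and 4.94%, against 7.55% and 9.16%. Mitofilin, which shapes the cristae, overlapped between the genotypes, with 61.0% and 64.7%, against 62.4% and 68.6%.

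RNA-binding, translation and decay genes had 6 of 12 entries below and 0 above (32.9% and 10.3% over all entries), with a median of -0.45. Beside yps, these were Imp, Hrb98DE, retm, nonC and spel1. Imp, an RNA-binding protein of the germ line and its niche, had 57.9% and 56.3% with cbc, against 61.6% and 63.8% with PCF11. The gene heph, also in the list and described above, had one of the narrowest intervals around 0. The hnRNP gene Hrb98DE had 8.95% and 14.3% with cbc, against 17.5% and 16.6% with PCF11, and nonC, the fly SMG1 kinase of nonsense-mediated decay, 78.8% and 78.2%, against 92.7% and 86.6%. The list also holds spel1, whose known role is in DNA mismatch repair. It had 46.5% and 43.6%, against 60.7% and 63.5%, with a DESeq2 adjusted p of 0.025. The CPEB family gene orb, a translational regulator, overlapped between the genotypes, with 9.54% and 13.8%, against 10.7% and 22.7%.

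Vesicle and cytoskeleton genes had 5 of 11 entries below and 1 above (32.9% and 10.3% over all entries), with a median of -0.27. Chc, the clathrin heavy chain, had 81.2% and 77.6% with cbc, against 82.3% and 82.3% with PCF11, and the microtubule plus-end gene Eb1 6.92% and 7.80%, against 7.80% and 8.82%. Rab11, the GTPase of recycling endosomes, had 49.0% and 48.3% with cbc, against 57.2% and 60.1% with PCF11. Rab5, the GTPase of early endosomes, was the 1 entry above, with 43.9% and 49.3%, against 41.5% and 36.3%, and its proximal window lies in an intron. The kinase, growth and BMP signalling list had 5 of 12 below and 1 above (median -0.16). Among them the phosphatase gene PRL-1 had 48.6% and 50.2%, against 59.9% and 58.3%, and the ubiquitin ligase gene Smurf, a negative regulator of BMP signalling that also stands in the ubiquitin list, 38.6% and 40.3%, against 53.6% and 59.8%. The casein kinase gene dco, with the most reads of the list, overlapped between the genotypes, with 10.5% and 16.6%, against 13.0% and 12.4%, as did the adaptor gene drk, with 47.3% and 38.8%, against 58.5% and 42.3%. Tsc1, a growth inhibitor, lay close together, with 45.5% and 50.5%, against 50.9% and 50.9%.

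Other lists were more even. Chromatin and transcription factor genes had 4 of 18 entries below and 3 above, with a median of -0.02. Here JIL-1, a histone H3 kinase, had 38.1% and 30.6% with cbc, against 48.2% and 49.7% with PCF11, and Deaf1 was the entry with the most reads above. Next in reads were the transcription factor gene chinmo, with 9.53% and 4.30%, against 8.88% and 9.0%, and sbb, with 24.3% and 32.5%, against 26.2% and 20.9%, and both overlapped between the genotypes. Cell cycle, spindle and polarity genes had 3 of 15 below and 2 above (median -0.10). The meiotic Cdc25 gene twe had 2.59% and 1.48%, against 15.0% and 11.5%, with EndoGI overlapping its windows. CycB3, a mitotic cyclin, had 4.15% and 2.93%, against 4.41% and 4.01%, and Bub1 4.14% and 15.4%, against 13.5% and 5.51%. In fzr2, 14 proximal reads all came from cbc library 1, so its fitted value rests on that library. Of 3 protein folding genes, Hsc70-5, the mitochondrial Hsp70 on which Roe1 acts, had 20.2% and 23.8%, against 31.4% and 30.3%. The other 2, the co-chaperone gene mrj and the unfolded-protein sensor gene Ire1, overlapped, with 4.77% and 6.90%, against 4.29% and 6.23%, in mrj and 13.0% and 24.2%, against 19.7% and 23.4%, in Ire1. None of the members of any list passed the edgeR usage test, and these shares stand beside 32.9% below and 10.3% above over all entries.

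Of 54 genes of cleavage, polyadenylation and elongation control, 5 are listed, and none codes for a subunit of the cleavage and polyadenylation factors. CycT, the cyclin of the elongation kinase P-TEFb, had 48.4% and 47.7% proximal usage with cbc, against 58.7% and 58.7% with PCF11. Su(Tpl), the fly ELL elongation factor, had 82.7% and 82.4%, against 78.5% and 79.0%, with Mi-2 overlapping. The NELF subunit gene TH1 and the Integrator subunit genes IntS6 and IntS10 overlapped between the genotypes. In summed reads the log2 fold of all 5 was above 0 (0.27 to 0.53, median 0.31, beside 0.00 over all 522 tested entries), and 0 of them passed the edgeR test.

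Reads summed over an entry's windows asked whether the listed genes differed in level, each relative to the others. The edgeR test called 11 of 522 entries (2.11%), 8 higher with cbc (1.53%) and 3 lower (0.575%). Both cbc libraries lay above both PCF11 libraries in 119 entries (22.8%) and below in 112 (21.5%), or 231 in all (44.3%), so the groups stood apart about as often one way as the other. DESeq2 called 0 entries, with 43 at an unadjusted p under 0.05, against 65 by edgeR.

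The 8 entries with more reads with cbc than with PCF11 include Bub1, nudE and Taf8. Bub1, a kinase of the spindle checkpoint, had 290 and 240 reads in cbc testes, against 133 and 127 in PCF11 testes, or a CPM of 996 ± 23.3 with cbc and 532 ± 0.941 with PCF11 (SD, n = 2 each). It was 1.87-fold higher with cbc (edgeR adjusted p of 0.0201), with no overlap between the libraries. The dynein regulator nudE had 379 and 387 reads, against 189 and 201 (1.81-fold, edgeR adjusted p of 0.0132), and Taf8, a TFIID subunit, 286 and 280, against 149 and 132 (1.86-fold, adjusted p of 0.0201).

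Liprin-alpha, a scaffold protein best known at synapses, had the highest log2 fold, cbc over PCF11, among called entries. It had 313 and 187 reads, against 110 and 116 (log2 1.01 ± 0.26, edgeR adjusted p of 0.0132). RhoGAP71E was higher with cbc by log2 0.71 and CG2765 by log2 0.68. Deaf1 had 3099 and 3055 reads with cbc, against 2026 and 2301 with PCF11 (log2 0.39 ± 0.10, edgeR adjusted p of 0.0132). This stood beside the higher proximal usage given above.

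Dph1, an enzyme of diphthamide synthesis on elongation factor 2, passed the edgeR test on reads. On usage it passed only the DESeq2 test. Its reads were 238 and 253 with cbc, against 89 and 147 with PCF11 (1.92-fold higher, edgeR adjusted p of 0.0201). Its proximal usage was 4.62% and 3.95%, against 22.5% and 24.5%, with a log2 odds ratio of -2.77 ± 0.61, an edgeR adjusted p of 0.195 and a DESeq2 adjusted p of 0.00048. Its distal window, which lies just downstream of the annotated gene, held 227 and 243 reads with cbc, against 69 and 111 with PCF11, while the proximal one held 11 and 10, against 20 and 36. The higher level was thus in distal reads.

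Of the 3 entries with fewer reads with cbc than with PCF11, CG33129 (Tmem214 in the reference annotation) had the lowest p. It had 2292 and 1852 reads with cbc, against 3435 and 2194 with PCF11 (log2 -0.56 ± 0.10, edgeR adjusted p of 1.8e-05), and PCF11 library 1 was far above the other 3. The gene mol, which acts in the maturation of dual oxidase, had 32 and 25 reads, against 96 and 60 (0.338-fold, edgeR adjusted p of 0.0229). CG14464 had 1306 and 1113, against 1724 and 1298 (0.738-fold, adjusted p of 0.0307). CG14464 also had a lower proximal usage, 12.3% and 20.1%, against 27.9% and 35.7%, and its proximal window lies in a coding exon.

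**Figure D5:**
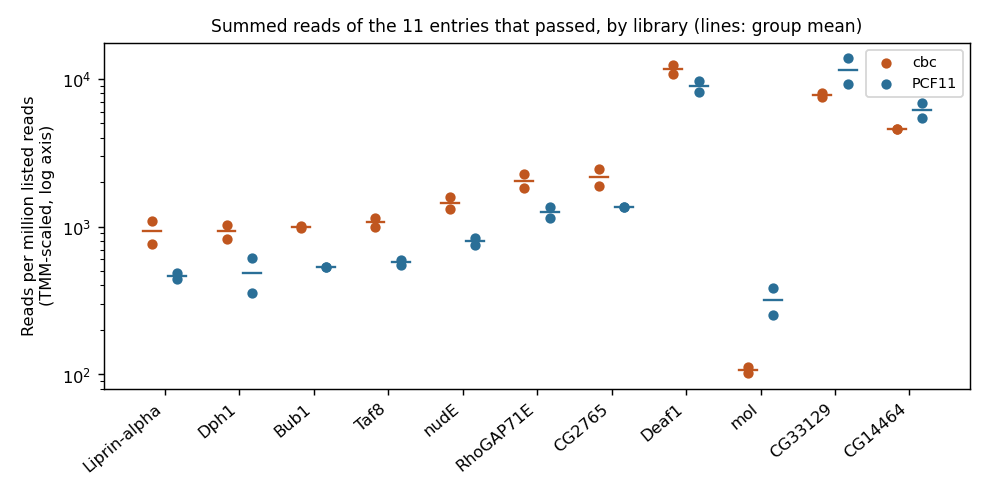
CPM of listed reads (y axis, log scale) in each cbc and PCF11 library (points, with group means as lines) for the 11 entries that passed the edgeR test on summed reads. The libraries do not overlap in any of them, with Bub1 at 996 with cbc and 532 with PCF11 on average, and mol at 107 and 318.

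By chromosome arm, 4 of the 11 lay on 2L, 2 on 2R, 4 on 3L and 1 on X, and the median log2 fold of the tested entries was -0.07 on 2R and 0.05 on 3L, with the other arms between. These calls depended on the fit. In the 4 libraries edgeR took the spread to be the same for all entries, so an entry's own spread had no weight. With all 8 libraries in 1 fit, or with DESeq2's size factors in edgeR, 0 entries passed. Without PCF11 library 1 the count was 0, without cbc library 2 it was 1, without cbc library 1 it was 10 (6 of the 11), and without PCF11 library 2 it was 19 (7 of the 11). The 11 kept their direction in all of these fits.

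Among the entries that did not pass, the closest with more reads in cbc testes were CG1486, TH1, Hcf, Rab11, orb and P5CDh1. The NELF subunit gene TH1 had 746 and 725 reads with cbc, against 424 and 517 with PCF11 (log2 0.53 ± 0.17, edgeR adjusted p of 0.0786). The closest with fewer reads included CG2129, oys, Rab21, ZnT86D and CG7218. CG2129 had 39 and 54 reads, against 111 and 87, with an edgeR adjusted p of 0.0549.

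Tested window by window, 11 of 953 windows passed the edgeR test (1.15%), 6 higher with cbc (0.63%) and 5 lower (0.525%). Of the lower ones, all 5 were proximal windows, and of the higher ones 5 were distal and 1, in Deaf1, was proximal. The median log2 fold was -0.13 over the 418 proximal windows tested and 0.07 over the 535 others. The proximal windows with fewer reads in cbc testes were those of CG14464, CG4686, CG8617, oaf and yps. In CG14464 the proximal window had 161 and 224 reads with cbc, against 481 and 463 with PCF11 (log2 -1.38 ± 0.23, edgeR adjusted p of 0.0027), and the distal one 1145 and 889, against 1243 and 835. The difference was thus in proximal reads. In yps the proximal window was lower by a log2 of -0.48 ± 0.11 (adjusted p of 0.0234 by edgeR) and the distal one higher by 0.47, with 2323 and 1800 reads, against 1306 and 1447 (adjusted p of 0.056).

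The distal windows with more reads in cbc testes were those of qkr58E-3, Dph1, nudE, spel1 and Rab11. The distal window of spel1 had 398 and 314 reads with cbc, against 181 and 159 with PCF11 (log2 0.96 ± 0.23, edgeR adjusted p of 0.0283), while its proximal one had 346 and 243, against 279 and 277. In Rab11 the distal window had 804 and 712, against 435 and 435 (log2 0.69 ± 0.17, edgeR adjusted p of 0.0355), and the proximal one 774 and 665, against 582 and 656. Scaled to the listed reads, the libraries of both genes overlapped between the genotypes at the proximal window but not at the distal one. The entry oaf, named with spel1 after its values were seen, had 222 and 168 proximal reads, against 333 and 396 (log2 -1.02 ± 0.22, edgeR adjusted p of 0.0234). With all 8 libraries in 1 fit 3 of these windows passed, and leaving out 1 library at a time gave 12 without cbc library 1, 6 without cbc library 2, 10 without PCF11 library 1 and 33 without PCF11 library 2.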

How the data were processed

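The authors counted reads per poly(A) window with PolyA-miner and deposited these raw counts, per the log of its run; windows of 30 bp were set on a supplied site list, and counting ignored strand. Bowtie, SAMtools and dm6/BDGP6 are named in the submitters' processing notes, without versions. Library totals were not analysed here.

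Tests used edgeR 4.0.16 and DESeq2 1.42.0 in R 4.3.3, with Benjamini-Hochberg adjustment over all tested entries or windows at 0.05. Entries averaging under 10 reads over the 4 libraries were left out, and for usage also those under 5 reads on either side (25 for usage and 7 for reads). The usage model held library, site and site-by-genotype terms; models of reads used TMM factors. Standard errors come from the coefficient and F. At the median depth of 272 to 339 reads per tested entry, a usage of 25% has a 95% exact binomial interval of 20.5 to 30.0% in cbc library 1 and 20.2 to 30.7% in PCF11 library 1, for counting error only. The edgeR tests of usage, reads and windows and the DESeq2 tests of usage and reads were checked on simulated counts. At a simulated log2 odds ratio of 1 and -1, the edgeR usage test called 40% and 32% of 25 entries each. DESeq2 called 24% and 16% of them. At 3 and -3 edgeR called 96% of each. Of 304 unchanged entries edgeR called 1.32% and DESeq2 0.329%. A usage difference of 2-fold in the odds was thus often missed. Members and the 9 gene lists were chosen with earlier results of these data known. Named entries were those that passed (up to 10 per direction), else up to 6 per direction with the lowest p and no overlap between genotypes, the 6 narrowest bounds, and the list members that passed or had the most reads; further list members were named after their values were seen. One entry that this rule names is not reported here. Gene positions came from the BDGP6.54 annotation; a window overlaps another gene in 157 entries, in 123 of them a gene of the opposite strand. Alternatives were other tools, scalings, minimums, site definitions, a replicate block and each library left out.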

Additional observations from a re-analysis of the deposited data

How the results depend on the processing

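The usage test called 0 entries in edgeR under every alternative from the planned set that used edgeR's default fit, including each library left out; DESeq2 called 17, and the bias-adjusted quasi-likelihood fit of edgeR, added after seeing the data, called 4 (yps, CG4686, qkr58E-3 and CG8617). For summed reads, 0 passed with all 8 libraries, 0 with DESeq2's size factors and 0 by DESeq2, and 0 to 19 with a library left out. For windows, 29 passed at a mean of 50 or more reads, 23 with no minimum, 25 without overlapping entries, 3 with all 8 libraries, 21 in the bias-adjusted fit, and 6 to 33 with a library left out. Intervals within 1 log2 numbered 281 at a bound of 2 and 25 to 33 with a library left out. The median centred log2 odds, added after seeing the data, differed by -0.29; with the most distal window set against all others the median usage difference was -1.51 points (exact permutation p of 0.667), and leaving out a library gave median usage differences of -2.33 to -0.83 points. The cause of these changes was not tested.

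The differences between replicates correlated at 0.0037 (usage) and -0.071 (reads) between the genotypes, so no shared shift by replicate number was seen. Whether libraries of the same number were prepared together cannot be told from this. With the replicate block, usage calls were 0, read calls 10, window calls 0 and intervals within 1 log2 37. Under the alternatives run, the 6 usage entries named in each direction and the 17 that DESeq2 called kept their sign. So did the 11 called in reads and the 11 called windows. Of 230 other named usage and read values, none called in the main fits, 95 changed sign in at least 1 alternative. Some of the 230 were called in an alternative, such as the reads of CG2129 and Rab21. Depth limits entries with few proximal reads most, such as Usp10, Grip71 and tgo.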
